A study of Rattus norvegicus with 10 samples.

Results

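The ESCRT, Vps, tetraspanin and flotillin genes are the parts list of endosomal sorting and vesicle formation, and 59 of the 9003 genes measured by RNA-seq in rat splenic M2 macrophages belonged to it. They were chosen by name only: symbols that begin with Chmp, Vps or Tspan followed by a number, together with *Tsg101*, *Pdcd6ip*, *Hgs*, *Stam*, *Stam2*, *Sdcbp*, *Cd9*, *Cd37*, *Cd53*, *Cd63*, *Cd81*, *Cd82*, *Flot1* and *Flot2*. The choice used symbols and no measured value, although the list was drawn up with earlier results of these data known. *Cd151* was also on the list of names and was not among the 9003 genes. By role the 59 genes comprised 3 of ESCRT-0, 5 of ESCRT-I, 2 of ESCRT-II, 8 of ESCRT-III, 2 VPS4 ATPases, 2 accessory proteins (ALIX and syntenin), 2 flotillins, 4 retromer genes, 7 genes of HOPS, CORVET and a related complex, 3 GARP and EARP genes, 3 VPS13 lipid-transfer genes, 3 further genes named Vps, 6 tetraspanins with CD names and 9 with Tspan names.

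The macrophages came from the spleens of WKY /Ncrj rats and were sequenced in 4 groups. The control group (n = 2 libraries) was healthy. In the GN group (n = 2) glomerulonephritis had been induced with TF78, a mouse monoclonal antibody against the glomerular basement membrane, and no cells were given. The EV+ and EV- groups (n = 3 each) came from nephritic rats that also received human adipose-derived stem cells (ASCs) labelled with the membrane dye DiD. EV+ macrophages were DiD-positive and EV- macrophages were DiD-negative by flow cytometry. The study used the dye to trace material passed on from the ASCs, vesicles in particular, and every EV+ and EV- library carries both the nephritis and the ASC treatment. No group received ASCs without nephritis. Rats used for the nephritis model were female and matched for age within an experiment, and the day of collection and the number of rats behind each library are not given in the sources used here. The comparison of GN with control bears on nephritis, and the comparison of EV+ with EV- bears on the uptake of the dye.

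In cells, ESCRT complexes act in sequence on the endosome. ESCRT-0 gathers ubiquitinated cargo, ESCRT-I and ESCRT-II bend the membrane, ESCRT-III filaments of CHMP proteins close the neck of the bud, and the VPS4 ATPase takes the filament apart. The buds become intraluminal vesicles, which are either degraded in lysosomes or released as exosomes when the endosome fuses with the plasma membrane. Retromer, HOPS, CORVET and GARP route and tether the carriers between endosomes, lysosomes and the Golgi, and tetraspanins are membrane proteins that are enriched on exosomes, which is why CD9, CD63 and CD81 serve as their markers. Macrophages are both a source and a major recipient of such vesicles.

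Levels are given as TMM-normalized CPM, the reads of a gene scaled by the reads on all genes of its library after the trimmed-mean correction of library sizes. Libraries held 19270515 to 26617093 reads on genes, and 3 reads were worth 0.113 to 0.153 CPM. CPM is not divided by transcript length, so a difference in CPM between genes is not read as a difference in level, and mean CPM served only to pick some of the genes to name. The macrophage genes *Csf1r* (5800.4 to 8155 CPM), *Adgre1* (1025 to 1491 CPM) and *Cd68* (1163 to 1466 CPM) were high in all 10 libraries. Of the genes commonly used to mark M2 macrophages, *Cd163* and *Mrc1* both stayed at or under 1.81 CPM, and each was listed at 0 in some libraries. Summed over 13 of 14 listed macrophage genes, the level was 25745 and 26064 CPM in control and 29769 to 32001 CPM in the 8 nephritic libraries. Over 11 of 14 NK- and T-cell genes it was 218 to 227 CPM in control, 285 to 291 CPM in GN, 273 to 347 CPM in EV+ and 348 to 905 CPM in EV-, the highest being EV- replicate 1. *Cd8a* made up most of this sum (199 to 201 CPM in control, 265 to 268 CPM in GN, 254 to 330 CPM in EV+ and 261 to 333 CPM in EV-). The other 10 genes summed to 16.8 to 26.4 CPM in the control and GN libraries and 14.9 to 33.4 CPM in EV+, and to 572, 87.1 and 43.2 CPM in EV- replicates 1 to 3. *Prf1*, the gene of the pore-forming protein perforin, was at or under 18.4 CPM in EV+ and at 24.5 to 335 CPM in EV-. The sum over 5 of 9 B-cell genes was 90.0 and 113 CPM in control and 46.8 to 75.9 CPM elsewhere. The lists for neutrophils (5 of 8 genes, 20.9 to 36.6 CPM), erythroid cells (2 of 9, 1.19 and 1.61 CPM in control and 3.28 to 7.26 CPM in the nephritic libraries) and dendritic cells (4 of 6, 25.7 to 37.4 CPM) were low in all libraries, *Pecam1* was the only 1 of 6 endothelial genes in the table (151 to 204 CPM), and none of 8 platelet genes was in it.

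The start-site windows of 4 genes that recur below are printed, although the main limma test called none of the 4 in any comparison. *Vps13a* and *Tspan13* had control libraries that did not overlap the nephritic ones. *Vps18* was highest in EV+, and *Vps9d1* separated EV+ from EV-. The windows are from RefSeq, rat build GRCr8. They run from 250 bases before to 50 bases after an annotated transcript start, read 5′ to 3′ on the gene's strand. Capitals mark matches on either strand to the GC box GGGCGG and to CCAAT. *Vps13a* lies at chr1:223555282-223555581 on the minus strand, *Vps18* at chr3:126733026-126733325 on the plus strand, *Tspan13* at chr6:58492755-58493054 on the minus strand and *Vps9d1* at chr19:68199195-68199494 on the minus strand.
Vps13a: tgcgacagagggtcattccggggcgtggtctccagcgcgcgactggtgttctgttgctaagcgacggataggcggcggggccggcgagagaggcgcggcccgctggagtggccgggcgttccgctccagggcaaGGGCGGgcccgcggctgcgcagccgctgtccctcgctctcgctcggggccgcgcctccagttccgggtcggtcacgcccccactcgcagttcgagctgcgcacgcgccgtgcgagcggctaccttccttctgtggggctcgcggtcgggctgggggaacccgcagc
Vps18: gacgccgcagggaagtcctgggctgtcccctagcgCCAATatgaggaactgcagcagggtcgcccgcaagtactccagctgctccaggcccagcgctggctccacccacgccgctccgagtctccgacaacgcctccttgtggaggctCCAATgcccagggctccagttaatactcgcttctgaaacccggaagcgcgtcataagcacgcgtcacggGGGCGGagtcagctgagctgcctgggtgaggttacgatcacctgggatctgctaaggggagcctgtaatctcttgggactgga
Tspan13: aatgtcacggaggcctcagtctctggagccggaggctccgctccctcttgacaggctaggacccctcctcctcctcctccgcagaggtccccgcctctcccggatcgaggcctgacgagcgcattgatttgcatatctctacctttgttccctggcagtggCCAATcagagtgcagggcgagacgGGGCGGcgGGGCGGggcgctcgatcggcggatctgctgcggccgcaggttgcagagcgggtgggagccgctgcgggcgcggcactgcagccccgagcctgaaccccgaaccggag
Vps9d1: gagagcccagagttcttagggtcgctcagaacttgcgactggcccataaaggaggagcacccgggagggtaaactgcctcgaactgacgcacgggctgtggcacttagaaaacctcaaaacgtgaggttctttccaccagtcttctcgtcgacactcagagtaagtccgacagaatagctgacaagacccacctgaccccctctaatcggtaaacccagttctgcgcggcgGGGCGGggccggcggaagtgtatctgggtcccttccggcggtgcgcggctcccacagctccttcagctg

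GC content was 74% in the *Vps13a* window, 68.3% at *Tspan13*, 62.7% at *Vps18* and 59.3% at *Vps9d1*. Of the 59 genes, 49 had a window, and 43 of these lay within 500 bases of the outer start of the gene. The windows of *Vps54* and *Cd63* began 22916 and 12606 bases inside their genes and are not shown, and *Vps13b* had no entry. Among the 43 genes the median GC content was 62.7%, against 51.7% over 23812 windows chosen the same way. These cover all RefSeq genes with a window and not only the 9003 measured. Whether measured genes in general differ from all windows in the same way was not tested. GGGCGG was found in 55.8% of the 43 windows and in 33.8% of all windows. The E-box CACGTG was found in 14% against 6.6%, at *Pdcd6ip*, *Vps11*, *Vps16*, *Vps26a*, *Vps33a* and *Vps37b*. CCAAT was found in 27.9% against 38.2%, the TATA-like TATAAA in 4.65% against 14.8%, and the AP-1 motif TGACTCA in 0 of the 43 windows against 4.54%. These are matches of letters only, and the build differs from rn6, on which the reads had been counted.

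As a group the genes varied little between libraries. The median SD of log2(CPM + 1) over the 10 libraries was 0.110 for the 59 genes and 0.175 for all 9003 genes. Restricted to genes with a mean of at least 10 CPM it was 0.108 for 54 members and 0.142 for 6370 genes. In those 54 genes the highest library exceeded the lowest by 1.11 to 2.36 times with a median of 1.27 times, and 44 of them stayed under 1.5 times. The map of all members by library shows this as a pale field with a few coloured rows, among them *Vps54*, *Vps13b*, *Vps18*, *Vps9d1*, *Cd63* and *Tspan17*.

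**Figure D1:**
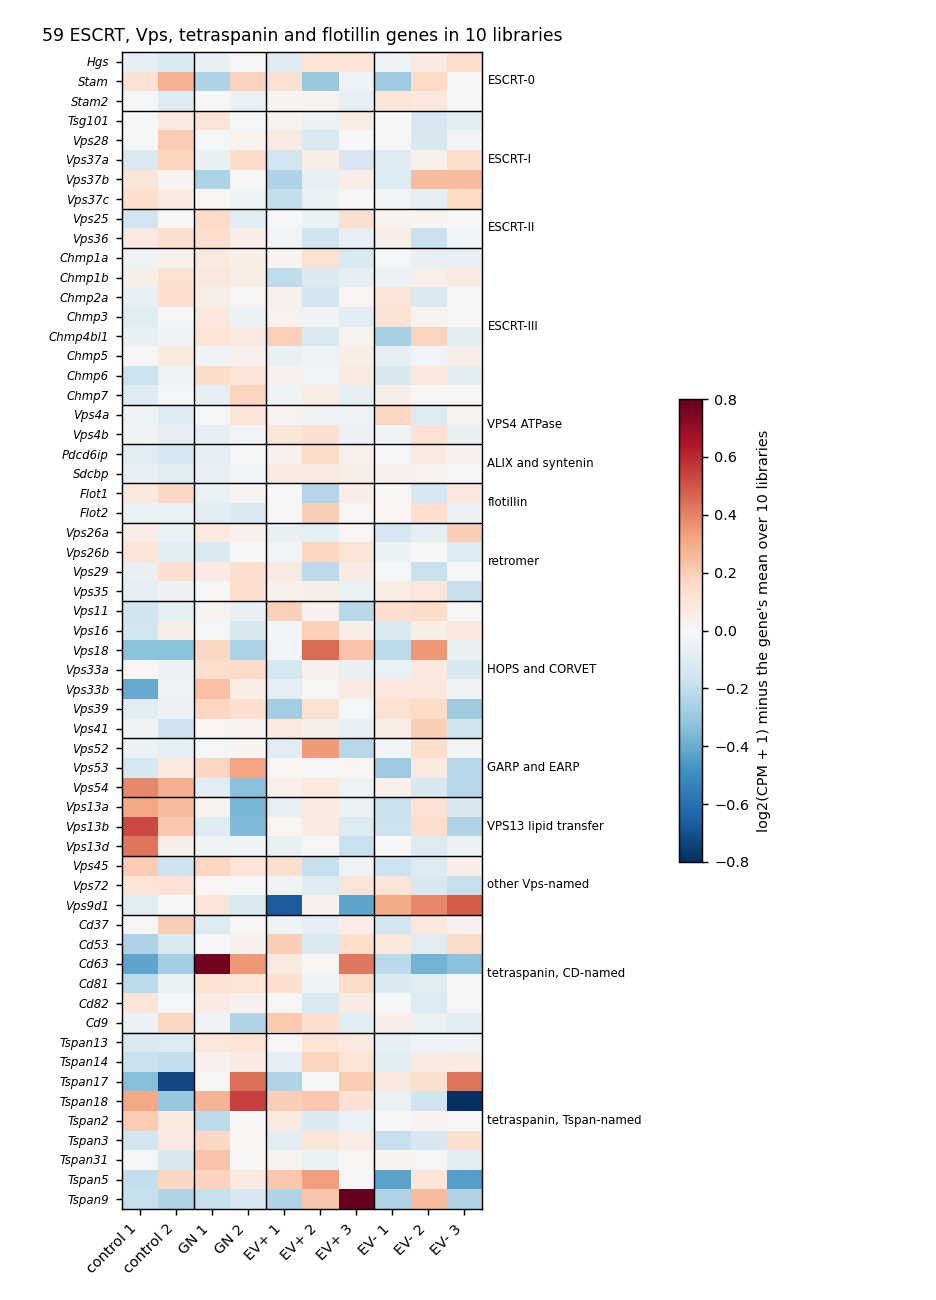
Each row is one of the 59 genes, ordered by role, and each column is one of the 10 libraries. The colour gives log2(CPM + 1) minus the gene's mean over the 10 libraries, from blue (lower) to red (higher), and saturates at 0.8, which 2 values exceeded (*Tspan9* in EV+ replicate 3 and *Tspan18* in EV- replicate 3). Most rows are pale, *Vps54* and *Vps13b* are red in the control columns, *Cd63* is red in GN, and *Vps9d1* is red in the EV- columns.

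Few genes of the list were called by limma in any comparison. In GN against control, it called 2 of the 59 genes (3.39%) at a false discovery rate under 0.1, where 1.75% of all genes were called. They were *Vps54*, of a tether, and *Vps13b*, a lipid-transfer gene, both lower in GN. Without the intensity trend limma called neither, and both calls depended on single libraries, as given below. In EV- against control, which rests on the same control libraries, *Vps54* was called lower, 1 of 59 against 2.84% of all genes, and the comparisons of EV+ with control, GN and EV- called none of the 59. None was called in EV- against GN, or in the F test among the 4 groups. The 3 comparisons with control share their control libraries, those that involve GN share the GN libraries, and their values are given side by side only. Libraries are bulk samples, in which fewer cells of a type and less RNA per cell cannot be told apart.

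None of the 18 genes of ESCRT-0 to ESCRT-III passed the test in any comparison by limma. Per comparison limma called 0.0222% to 3.63% of all genes, and at such shares a list of 18 genes can lack a call. *Hgs*, the cargo-binding subunit of ESCRT-0, was measured at 116 and 112 CPM in control, 117 and 122 CPM in GN, 114, 131 and 131 CPM in EV+ and 119, 129 and 135 CPM in EV-. *Tsg101*, the ESCRT-I subunit used as an exosome marker, was measured at 154 and 163 CPM in control, 166 and 154 CPM in GN, 157, 149.7 and 161 CPM in EV+ and 155, 140.4 and 145 CPM in EV-. The 4 groups overlapped for *Tsg101*, while both GN and all EV- libraries were slightly above both control libraries for *Hgs*. The fold change of *Hgs* was 0.06 on the log2 scale in GN against control (95% interval -0.15 to 0.28) and -0.02 in EV+ against EV- (-0.20 to 0.15), and that of *Tsg101* was 0.01 (-0.17 to 0.20) and 0.09 (-0.07 to 0.24).

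*Stam* and *Stam2*, which pair with *Hgs*, averaged 12.5 ± 1.11 and 34.6 ± 1.57 CPM (mean ± SD) in the control group and 10.3 ± 1.62 and 35.9 ± 1.32 CPM in EV+, with adjusted p-values of 0.58 and 0.872. Of the other ESCRT-I genes, *Vps28* averaged 187 ± 20.1 CPM in control and 169 ± 8.10 CPM in EV-, and *Vps37c* averaged 27.4 ± 0.96 and 25.9 ± 2.28 CPM. *Vps37b* averaged 36.8 ± 3.86 CPM in EV+ and 43.1 ± 6.06 CPM in EV- and was lower in EV+ in all 3 numbered pairs (log2 fold change -0.22 ± 0.12 (SE), adjusted p = 0.9997). All 5 ESCRT-I genes were lower in EV+ than in control by estimate, with log2 fold changes from -0.18 to -0.02, and none passed the test.

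In ESCRT-II, which links ESCRT-I to the CHMP filament, *Vps36* was measured at 74.3 and 77.04 CPM in control, 77.6 and 73.1 CPM in GN, 69.3, 63.1 and 67.4 CPM in EV+ and 72.9, 62.2 and 69.4 CPM in EV-. Each of the 6 EV+ and EV- libraries was below each of the 4 control and GN libraries, the nearest values being 72.9 and 73.1 CPM. Neither fit called it (log2 fold change -0.18 ± 0.10 (SE), adjusted p = 0.792 in EV+ against GN, and log2 fold change -0.14 ± 0.10 (SE), adjusted p = 0.782 in EV- against GN). *Vps25*, its partner, averaged 121 ± 8.61 CPM in control and 129.7 ± 8.68 CPM in EV+ and its groups overlapped.

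Among the 8 ESCRT-III genes, *Chmp1b*, which binds the MIT domains of VPS4 and spastin, differed most between the groups given ASCs. It was measured at 125 and 132 CPM in control, 129 and 126 CPM in GN, 105, 111 and 115 CPM in EV+ and 117, 124 and 127 CPM in EV-. The 3 EV+ libraries were the lowest of all 10 and did not overlap the EV- libraries. The fold changes were not called (log2 fold change -0.15 ± 0.07 (SE), adjusted p = 0.9997 in EV+ against EV-, and adjusted p = 0.647 in EV+ against GN and 0.222 in EV+ against control). In the GRCr8 annotation *Chmp1b* overlaps *Gnal*, and whether reads were assigned by strand is not given in the sources used here.

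Estimates of all 8 ESCRT-III genes were below 0 in EV+ against GN, with a median log2 fold change of -0.06 and a range from -0.21 to -0.02, against a median of -0.01 over all genes, and none passed the test. *Chmp6* was 57.7 ± 4.02 CPM in control and 67.5 ± 1.55 CPM in GN (log2 fold change 0.23 ± 0.11 (SE), adjusted p = 0.495). *Chmp1a*, at 234 ± 9.73 CPM in control, and *Chmp4bl1*, a *Chmp4b*-like copy at 4.52 ± 0.0776 CPM, had no unadjusted p under 0.05 in any of the 6 comparisons. The ATPases *Vps4a* and *Vps4b* averaged 33.5 ± 0.975 and 241 ± 5.64 CPM in the control group and 34.9 ± 0.944 and 261 ± 16.8 CPM in EV+, and their EV+ against EV- intervals were -0.26 to 0.18 and -0.11 to 0.21.

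Syntenin and ALIX, which load syndecan cargo into exosomes, had slightly higher values in the rats given ASCs than in control, without a call. *Sdcbp*, the syntenin gene, was measured at 817 and 801 CPM in control, 816 and 842 CPM in GN, 897, 898 and 884 CPM in EV+ and 875, 873 and 860.2 CPM in EV-. Its 3 EV+ libraries lay above its 3 EV- libraries, and these lay above all 4 control and GN libraries. The differences were small (log2 fold change 0.14 ± 0.06 (SE), adjusted p = 0.29 in EV+ against control, and log2 fold change 0.04 ± 0.05 (SE), adjusted p = 0.9997 in EV+ against EV-).

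*Pdcd6ip*, which encodes ALIX, was measured at 207 and 201 CPM in control, 211 and 221 CPM in GN, 227, 247 and 228 CPM in EV+ and 219.7, 233 and 227 CPM in EV-. Both control libraries were below all 8 nephritic libraries, and EV+ overlapped EV-. The fit gave log2 fold change 0.19 ± 0.07 (SE), adjusted p = 0.229 in EV+ against control and log2 fold change 0.15 ± 0.07 (SE), adjusted p = 0.41 in EV- against control. A pseudogene, *Pdcd6ip*-ps1, is annotated in GRCr8, and how reads that match both copies were counted was not tested.

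The flotillins are scaffold proteins of membrane microdomains that are used as vesicle markers. Like most genes of the table, they were not called by limma in any comparison. *Flot2* was measured at 388 and 388 CPM in control, 378 and 372 CPM in GN, 403, 461 and 405 CPM in EV+ and 408, 442 and 389.8 CPM in EV-. All 6 libraries from rats given ASCs were above all 4 others, the nearest pair being 389.8 and 388 CPM, and replicate 2 was the highest in both EV+ and EV-. Without a call, its fold change was 0.17 in EV+ against GN (adjusted p = 0.7) and 0.14 in EV- against GN (adjusted p = 0.736). *Flot1* was measured at 88.8 and 93.7 CPM in control, 80.6 and 84.9 CPM in GN, 83.3, 70.8 and 86.8 CPM in EV+ and 84.2, 75.7 and 89.2 CPM in EV-, with control above GN and EV+ and overlapping EV-, and without a call (log2 fold change -0.14 ± 0.12 (SE), adjusted p = 0.756 in GN against control).

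**Figure D2:**
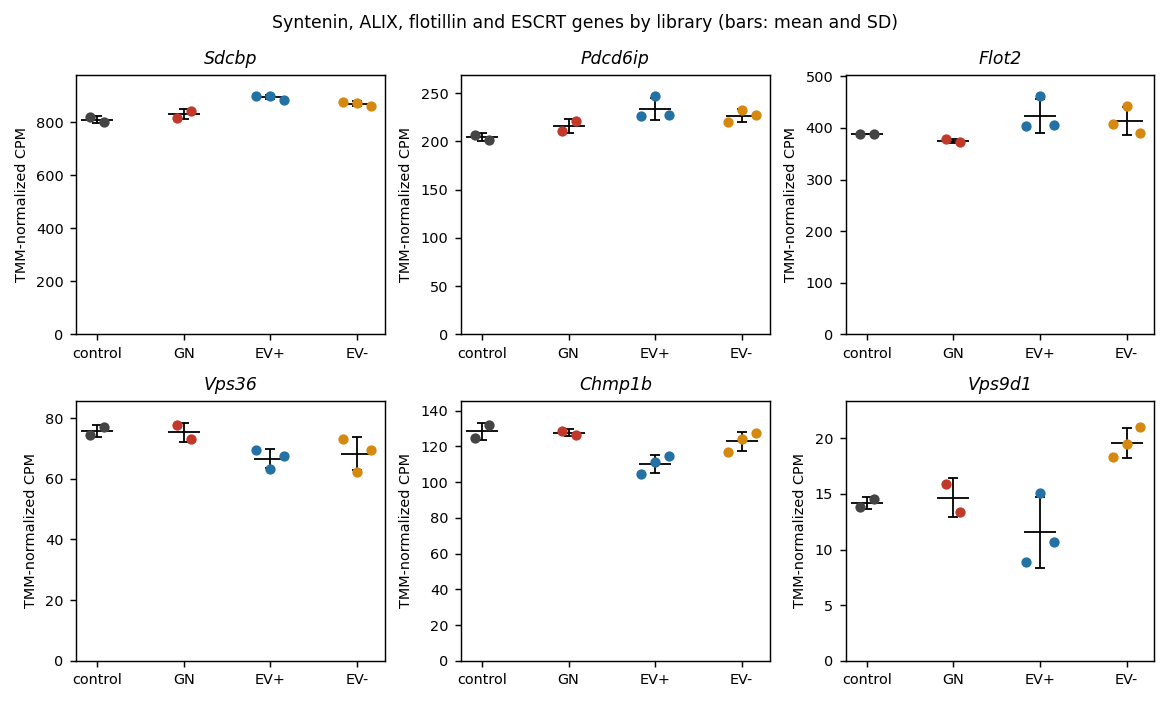
TMM-normalized CPM of *Sdcbp*, *Pdcd6ip*, *Flot2*, *Vps36*, *Chmp1b* and *Vps9d1* in each library, by group, with every axis starting at 0. Points are libraries, and the horizontal line and bars give the mean and SD. *Sdcbp* and *Flot2* are higher and *Vps36* lower in all 6 EV+ and EV- libraries than in the 4 control and GN libraries, by small margins, and *Vps9d1* separates EV+ (8.91 to 15.1 CPM) from EV- (18.3 to 21.0 CPM).

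Across the whole list, 3 of the 59 genes (*Flot2*, *Sdcbp* and *Vps36*) had no overlap between the 6 EV+ and EV- libraries and the 4 control and GN libraries. That is 5.08% of the members, against 3.08% of all genes.

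Retromer, which returns receptors from endosomes, had no gene called by limma in any comparison, where at most 3.63% of all genes were called. *Vps35*, its largest subunit, averaged 337 ± 4.76 CPM in control, 368 ± 25.6 CPM in GN, 355 ± 13.3 CPM in EV+ and 350.2 ± 35.7 CPM in EV-. The subunit *Vps26b* averaged 82.9 ± 5.65 CPM in EV+ and 74.99 ± 3.09 CPM in EV- (log2 fold change 0.14 ± 0.09 (SE), adjusted p = 0.9997). *Vps26a* averaged 111 ± 3.55 and 114 ± 14.3 CPM (log2 fold change -0.04 ± 0.09 (SE), adjusted p = 0.9997). For all 4 retromer genes the 95% interval of EV+ against EV- lay within 0.5 on the log2 scale.

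HOPS and CORVET tether endosomes and lysosomes before fusion, and 5 of their 6 genes had higher estimates in GN than in control, with a median log2 fold change of 0.14 and none called. With *Vps33b* of a related complex it was 6 of 7 genes and a median of 0.16. The median over all genes was -0.00. *Vps18*, a core subunit of both complexes, was measured at 51.8 and 51.7 CPM in control, 73.4 and 54.7 CPM in GN, 64.3, 89.8 and 76.5 CPM in EV+ and 56.4, 83.3 and 62.6 CPM in EV-. Both control libraries were below all 8 others, and the highest values were EV+ replicate 2 and EV- replicate 2. The fit gave log2 fold change 0.55 ± 0.17 (SE), adjusted p = 0.13 in EV+ against control, and 0.29 with adjusted p = 0.67 in GN against control. DESeq2 and the edgeR likelihood-ratio test on the recovered reads called *Vps18* in EV+ against control (adjusted p = 0.0421 and 0.0578), and so did limma without EV+ replicate 1 (0.0645) or without EV- replicate 2 (0.0756), within a range of 0.0421 to 0.473 over the alternatives.

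*Vps33b*, a homologue of the HOPS subunit *Vps33a* that works in a related complex, was measured at 18.9 and 24.5 CPM in control, 29.98 and 26.4 CPM in GN, 23.9, 25.1 and 26.6 CPM in EV+ and 26.9, 26.9 and 24.7 CPM in EV-. GN was above control in both libraries (log2 fold change 0.37 ± 0.15 (SE), adjusted p = 0.372). *Vps16* and *Vps41*, further core and HOPS subunits, averaged 113 ± 10.9 and 86.9 ± 5.86 CPM in the control group and 123 ± 9.25 and 94.2 ± 4.85 CPM in EV+, without a call. The core subunits *Vps11* and *Vps33a* averaged 94.8 ± 3.70 and 39.2 ± 1.15 CPM in the control group, with GN means of 101.5 ± 3.91 and 43.9 ± 0.283 CPM (log2 fold change 0.10 ± 0.12 and 0.16 ± 0.12 (SE), adjusted p = 0.85 and 0.701).

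GARP tethers carriers that return from endosomes to the trans-Golgi, and EARP is its endosomal relative that lacks *Vps54*. *Vps54*, the subunit particular to GARP, was measured at 69.95 and 65.5 CPM in control, 50.01 and 42.1 CPM in GN, 54.97, 56.5 and 51.8 CPM in EV+ and 54.9, 48.7 and 45.4 CPM in EV-. Both control libraries were above all 8 nephritic libraries, and EV+ lay between control and the means of GN and EV-. *Vps54* fell in GN against control (log2 fold change -0.55 ± 0.12 (SE), adjusted p = 0.0487) and in EV- against control (log2 fold change -0.44 ± 0.11 (SE), adjusted p = 0.0683). In EV+ against control the estimate was -0.31 (adjusted p = 0.205) and in EV+ against GN it was 0.24 (95% interval 0.00 to 0.48, adjusted p = 0.699).

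The fall of *Vps54* in GN rested on few libraries. Its adjusted p rose to 0.109 without GN replicate 1, 0.465 without GN replicate 2, 0.284 without control replicate 1 and 0.143 without control replicate 2, where the lone library of a group is assumed to vary like the others. In EV- against control it was 0.151 and 0.193 without EV- replicates 2 and 3 and 0.309 and 0.239 without control replicates 1 and 2. Over all alternatives the log2 fold change in GN kept between -0.67 and -0.43 with adjusted p from 0.00345 to 0.465. The summed macrophage, B-cell and erythroid markers and *Cd8a* given above also separated control from the nephritic libraries. The sum of the other 10 NK- and T-cell genes did not. The part of these markers in the *Vps54* result was not tested. A pseudogene, *Vps54*-ps1, is annotated on another chromosome in GRCr8.

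The other tether subunits did not follow *Vps54*. *Vps53*, shared by GARP and EARP, was measured at 59.9 and 69.9 CPM in control, 74.8 and 82.5 CPM in GN, 66.9, 65.7 and 66.9 CPM in EV+ and 53.99, 69.98 and 56.4 CPM in EV-. GN was the highest group and did not overlap control (log2 fold change 0.28 ± 0.13 (SE), adjusted p = 0.477), and EV- lay below GN (log2 fold change -0.39 ± 0.12 (SE), adjusted p = 0.34). *Vps52*, also shared, was measured at 106 and 104 CPM in control, 108 and 111 CPM in GN, 102, 139 and 93.3 CPM in EV+ and 107, 121 and 108 CPM in EV-, with the 3 EV+ values on both sides of every other group and EV+ replicate 2 the highest of all.

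VPS13 proteins are long bridges that move lipids between membranes at contact sites, and all 3 members in the table were lower in GN, EV+ and EV- than in control by estimate. Only *Vps13b* passed the test, and only in GN. This Golgi-associated member was measured at 93.8 and 75.4 CPM in control, 60.1 and 50.4 CPM in GN, 65.4, 67.99 and 59.96 CPM in EV+ and 57.3, 71.4 and 54.6 CPM in EV-. All 8 nephritic libraries were below both control libraries, the nearest values being 71.4 and 75.4 CPM. *Vps13b* fell in GN against control (log2 fold change -0.60 ± 0.15 (SE), adjusted p = 0.0772). In EV- against control it reached log2 fold change -0.46 ± 0.13 (SE), adjusted p = 0.115, and in EV+ against control log2 fold change -0.38 ± 0.13 (SE), adjusted p = 0.19. The call in GN was lost without EV- replicate 1 (adjusted p = 0.103), EV+ replicate 3 (0.115), GN replicate 1 (0.165), GN replicate 2 (0.554) or control replicate 1 (0.487), within a range of 0.00857 to 0.554 over the alternatives.

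*Vps13a*, which acts at contacts of the endoplasmic reticulum with mitochondria and lipid droplets, was measured at 31.9 and 30.6 CPM in control, 26.03 and 19.6 CPM in GN, 24.3, 26.7 and 24.6 CPM in EV+ and 22.4, 27.7 and 23.3 CPM in EV-. Its control libraries were also the 2 highest of the 10 (log2 fold change -0.45 ± 0.16 (SE), adjusted p = 0.283). *Vps13d*, a member that acts at mitochondria and peroxisomes, was measured at 19.7 and 14.9 CPM in control, 14.00 and 14.1 CPM in GN, 13.8, 14.2 and 12.6 CPM in EV+ and 14.4, 13.3 and 13.9 CPM in EV-. Control replicate 1 stood apart and control replicate 2 was only just above the highest nephritic library (log2 fold change -0.27 ± 0.17 (SE), adjusted p = 0.642). The counts of genes higher and lower in the VPS13, HOPS and Tspan lists were the same in every comparison when the libraries were scaled by relative log expression instead of TMM.

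**Figure D3:**
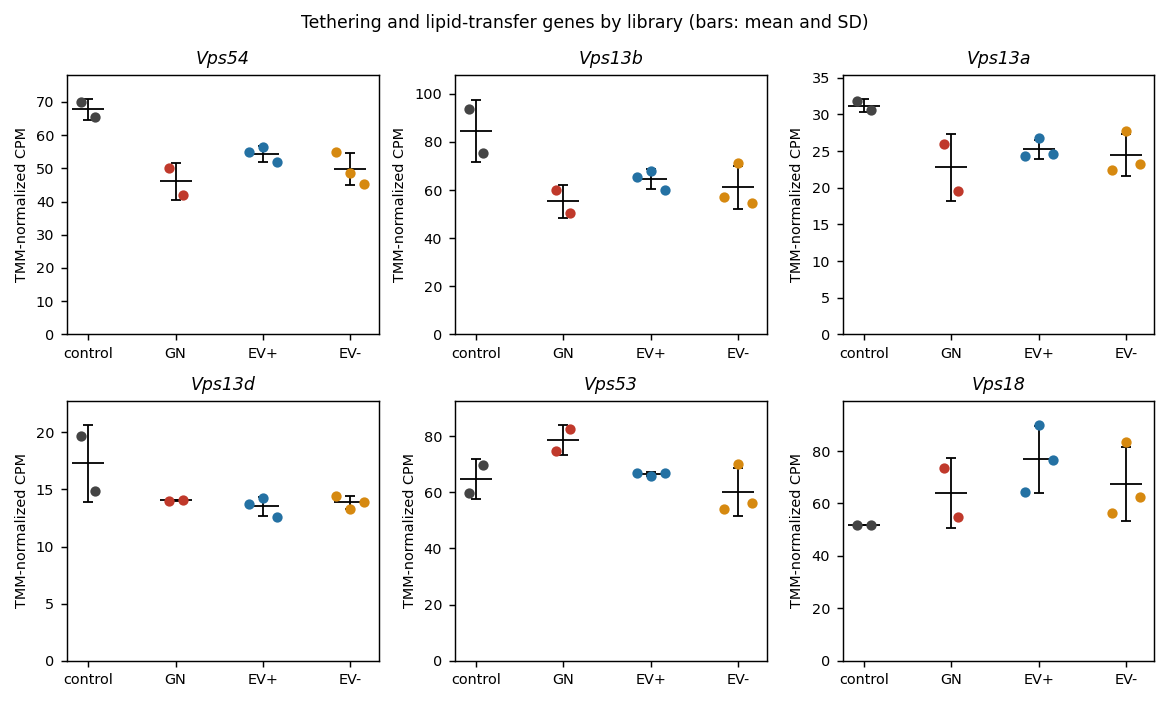
TMM-normalized CPM of *Vps54*, *Vps13b*, *Vps13a*, *Vps13d*, *Vps53* and *Vps18* in each library, by group, with every axis starting at 0. Points are libraries, and the horizontal line and bars give the mean and SD. *Vps54* stands at 65.5 and 70.0 CPM in control and at 42.1 to 56.5 CPM in the 8 nephritic libraries, the 3 VPS13 genes have the same order of control above the rest, and *Vps18* has control below the rest.

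Of the 3 further genes named Vps, *Vps9d1* gave the clearest separation of EV+ from EV-. Its VPS9 domain is the kind found in activators of RAB5, a switch of early endosomes. *Vps9d1* was measured at 13.8 and 14.6 CPM in control, 15.9 and 13.4 CPM in GN, 8.91, 15.1 and 10.7 CPM in EV+ and 18.3, 19.5 and 21.01 CPM in EV-. EV- was above every other library and 2 of the 3 EV+ libraries were below every other, with EV+ replicate 2 among the control and GN values. The fit gave log2 fold change -0.74 ± 0.17 (SE), adjusted p = 0.356 in EV+ against EV- (unadjusted p = 0.000633), which did not pass over 9003 genes, and 0.44 with adjusted p = 0.332 in EV- against control.

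Other fits called *Vps9d1* in EV+ against EV-. The adjusted p was 0.0217 by the edgeR likelihood-ratio test, 0.0533 by DESeq2, 0.0782 by limma without EV+ replicate 2, and 0.098 by limma restricted to those 6 libraries and blocked on the replicate number, a fit added after seeing the data. Over all alternatives it ranged from 0.0217 to 0.9999. The NK- and T-cell markers without *Cd8a* were also higher in EV- than in EV+ (43.2 to 572 against 14.9 to 33.4 CPM summed over 10 genes). Every EV- library exceeded every EV+ library in both this sum and *Vps9d1*. Within EV-, replicate 1 had the highest sum and the lowest *Vps9d1* value. The part of these markers in the *Vps9d1* difference was not tested. *Vps45*, a regulator of endosomal SNARE proteins, averaged 17.4 ± 3.36 CPM in control and 16.2 ± 1.42 CPM in EV-, and *Vps72*, which is a subunit of chromatin-remodelling complexes despite its name, averaged 72.5 ± 0.545 and 64.2 ± 6.97 CPM, both without a call.

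Of the 3 tetraspanins that serve as exosome markers, *Cd63* differed most between groups and was measured from few reads. *Cd63*, whose protein sits in late endosomes and lysosomes, was measured at 1.85 and 2.14 CPM in control, 5.52 and 3.84 CPM in GN, 3.01, 2.86 and 4.10 CPM in EV+ and 2.28, 1.94 and 2.02 CPM in EV-. GN was above control and EV- in both libraries, the 3 EV+ libraries were above the 3 EV- libraries, and EV- overlapped control. The fit gave log2 fold change 0.91 ± 0.25 (SE), adjusted p = 0.137 in GN against control, log2 fold change -0.87 ± 0.23 (SE), adjusted p = 0.268 in EV- against GN and log2 fold change 0.48 ± 0.21 (SE), adjusted p = 0.9997 in EV+ against EV-. None of these passed, while DESeq2 and the edgeR likelihood-ratio test called the rise in GN (adjusted p = 0.0833 and 0.0522), within a range of 0.0522 to 0.586 over the alternatives. *Cd63* overlaps *Rdh5* in the GRCr8 annotation, and how reads in a shared stretch were counted was not tested.

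*Cd81* was measured at 262 and 292 CPM in control, 328 and 327 CPM in GN, 333, 296 and 335 CPM in EV+ and 280.0, 283 and 305 CPM in EV-. Both GN libraries were above both control and all EV- libraries, and EV+ overlapped GN and EV- and lay above control (log2 fold change 0.24 ± 0.09 (SE), adjusted p = 0.314 in GN against control, and log2 fold change 0.15 ± 0.07 (SE), adjusted p = 0.9997 in EV+ against EV-). *Cd9* was measured at 109 and 127 CPM in control, 110.4 and 95.6 CPM in GN, 131, 124 and 105 CPM in EV+ and 117, 109 and 106 CPM in EV-, with overlap of EV+ and EV- and without a call (log2 fold change -0.19 ± 0.12 (SE), adjusted p = 0.643 in GN against control). *Cd53*, a tetraspanin of leukocytes, was measured at 1918 and 2085 CPM in control, 2246 and 2327 CPM in GN, 2605, 2085 and 2501 CPM in EV+ and 2407, 2121 and 2532 CPM in EV-, and its fold change of 0.25 in EV+ against control reached adjusted p = 0.241. The leukocyte tetraspanin *Cd37* averaged 509.7 ± 51.6 CPM in control and 469.8 ± 21.8 CPM in EV+, and *Cd82* averaged 333 ± 19.03 and 319 ± 21.1 CPM.

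Of the 9 tetraspanins with Tspan names, *Tspan9* had at most 2 reads in any control or GN library and gives no comparison of these groups. Of the other 8, 7 had higher estimates in GN than in control, with a median log2 fold change of 0.20, and none was called by limma. *Tspan13* was measured at 308 and 311 CPM in control, 357 and 361 CPM in GN, 336, 361 and 354 CPM in EV+ and 319.5, 326 and 327 CPM in EV-. Its control libraries were the 2 lowest of the 10, and the 3 EV+ libraries were above the 3 EV- libraries (log2 fold change 0.21 ± 0.07 (SE), adjusted p = 0.26 in GN against control, and log2 fold change 0.11 ± 0.06 (SE), adjusted p = 0.9997 in EV+ against EV-). *Tspan14*, which guides the protease ADAM10 to the cell surface, was measured at 162 and 159 CPM in control, 187 and 191 CPM in GN, 174, 207 and 198 CPM in EV+ and 173, 192 and 193 CPM in EV-. Its control libraries were likewise the lowest (log2 fold change 0.24 ± 0.10 (SE), adjusted p = 0.383 in GN against control, and log2 fold change 0.26 ± 0.09 (SE), adjusted p = 0.171 in EV+ against control).

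*Tspan17*, a relative of *Tspan14*, was measured at 2.08 and 1.36 CPM in control, 2.92 and 4.29 CPM in GN, 2.31, 2.90 and 3.48 CPM in EV+ and 3.16, 3.26 and 4.24 CPM in EV-. Control was again the lowest group, at a level of few reads (log2 fold change 0.76 ± 0.27 (SE), adjusted p = 0.299 in GN against control, and log2 fold change 0.75 ± 0.25 (SE), adjusted p = 0.178 in EV- against control). *Tspan2* had an estimate in the other direction, with 95.4 ± 6.01 CPM in control and 80.4 ± 8.22 CPM in GN (log2 fold change -0.25 ± 0.10 (SE), adjusted p = 0.406). *Tspan18* was measured at 1.73 and 0.784 CPM in control, 1.66 and 2.22 CPM in GN, 1.52, 1.56 and 1.38 CPM in EV+ and 1.12, 0.968 and 0 CPM in EV- and its EV+ libraries were above its EV- libraries (log2 fold change 0.63 ± 0.30 (SE), adjusted p = 0.9997), a contrast that took in a library at 0. *Tspan9* was at or under 1.34 CPM and listed at 0 in 4 libraries, and *Tspan5* averaged 11.5 ± 1.48 CPM in EV+ and 8.37 ± 2.11 CPM in EV- (log2 fold change 0.44 ± 0.18 (SE), adjusted p = 0.9997).

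**Figure D4:**
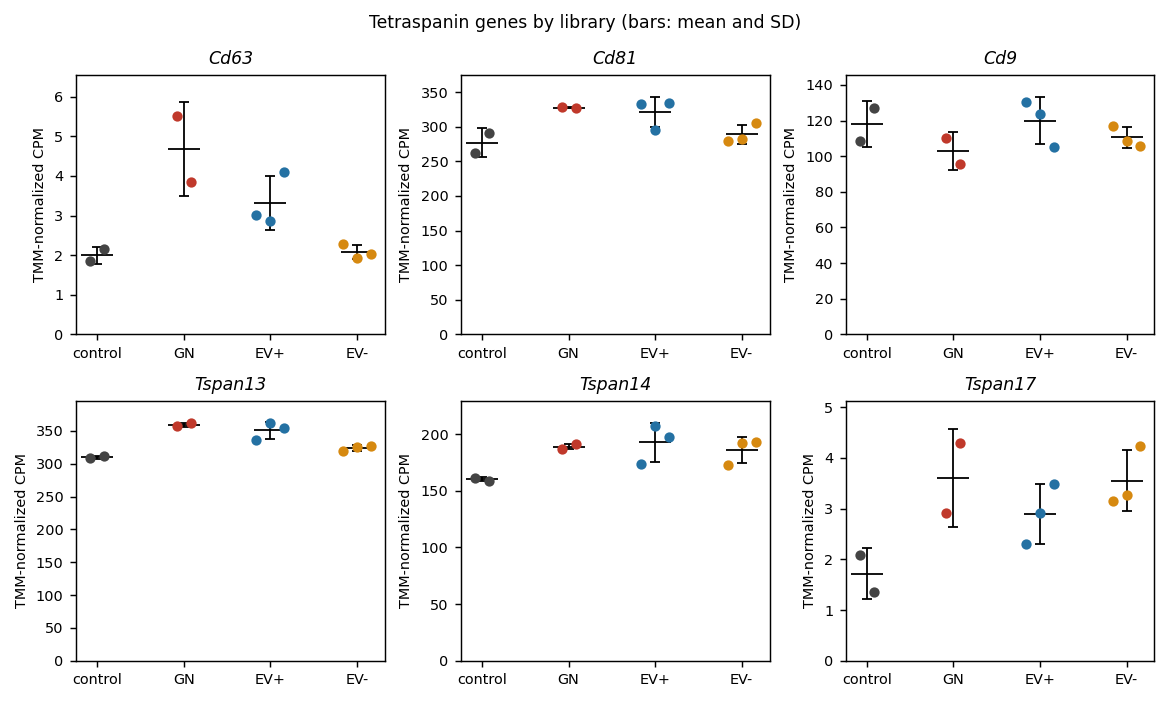
TMM-normalized CPM of *Cd63*, *Cd81*, *Cd9*, *Tspan13*, *Tspan14* and *Tspan17* in each library, by group, with every axis starting at 0. Points are libraries, and the horizontal line and bars give the mean and SD. *Cd63* is at 3.84 and 5.52 CPM in GN, 2.86 to 4.10 CPM in EV+ and 1.85 to 2.28 CPM in control and EV-, and *Tspan13*, *Tspan14* and *Tspan17* have control as the lowest group.

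For nephritis as a whole, 10 of the 59 genes separated the 2 control libraries from the 8 nephritic ones without overlap, where 12.6% of all genes did. *Pdcd6ip*, *Tspan13*, *Tspan14*, *Tspan17* and *Vps18* were higher and *Tspan2*, *Vps13a*, *Vps13b*, *Vps13d* and *Vps54* lower in the nephritic libraries. In GN against control 39 genes were higher (*Tspan9* with its few reads among them) and 20 lower by estimate, with a median log2 fold change of 0.06 against -0.00 over all genes. By limma at an unadjusted p under 0.05 the count was 11 of 59 (10.4% of all genes): *Cd63*, *Cd81*, *Tspan13*, *Tspan14*, *Tspan17*, *Vps33b* and *Vps53* in the higher direction and *Tspan2*, *Vps13a*, *Vps13b* and *Vps54* in the lower. At a false discovery rate under 0.1 the edgeR quasi-likelihood test called *Vps54* and *Vps13b* (1.63% of all genes), the edgeR likelihood-ratio test added *Cd63* (3.24%) and DESeq2 added *Cd63* and *Tspan13* (3.27%). limma without the intensity trend called *Cd63* alone, and leaving out single libraries gave 0 to 2 genes.

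EV+ and EV- macrophages were close to each other over the list. limma called 0 of the 59 genes (0.0222% of all genes) and so did the edgeR quasi-likelihood test (0.0222%), while the likelihood-ratio test (0.633%), DESeq2 (0.378%) and limma restricted to these 6 libraries and blocked (0.544%) each called *Vps9d1*. The unadjusted count was 3 (*Cd63*, *Tspan5* and *Vps9d1*) against 4.57% of all genes. Without overlap were 6 of 59 genes, *Cd63*, *Sdcbp*, *Tspan13* and *Tspan18* higher and *Chmp1b* and *Vps9d1* lower in EV+, against 8.91% of all genes. For 52 of the 59 genes the 95% interval of the difference lay within 0.5 on the log2 scale, that is within 1.41 times. The genes with wider intervals were *Cd63*, *Tspan5*, *Tspan9*, *Tspan17*, *Tspan18*, *Vps18* and *Vps9d1*. Without EV+ replicate 2 limma called 1 gene, *Vps9d1*. Apart from the blocked fit, these values take no account of the replicate numbers. Compared within the 3 numbered pairs, 21 of the 59 genes differed in 1 direction in all pairs (35.6%, against 28% of all genes). They comprised 14 with EV+ higher, among them *Cd63*, *Cd81*, *Pdcd6ip*, *Sdcbp*, *Tsg101*, *Tspan5*, *Tspan13*, *Vps18* and *Vps54*, and 7 with EV+ lower, *Chmp1b*, *Chmp3*, *Flot1*, *Stam2*, *Tspan17*, *Vps37b* and *Vps9d1*. In limma restricted to these libraries and blocked, 8 members had an unadjusted p under 0.05 (7.85% of all genes), *Cd81*, *Chmp1b*, *Tspan5*, *Tspan13*, *Tspan18*, *Vps18*, *Vps37b* and *Vps9d1*, and *Vps9d1* alone passed the adjustment. The NK- and T-cell markers differed between these groups as given above, and their part in these differences was not tested.

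**Figure D5:**
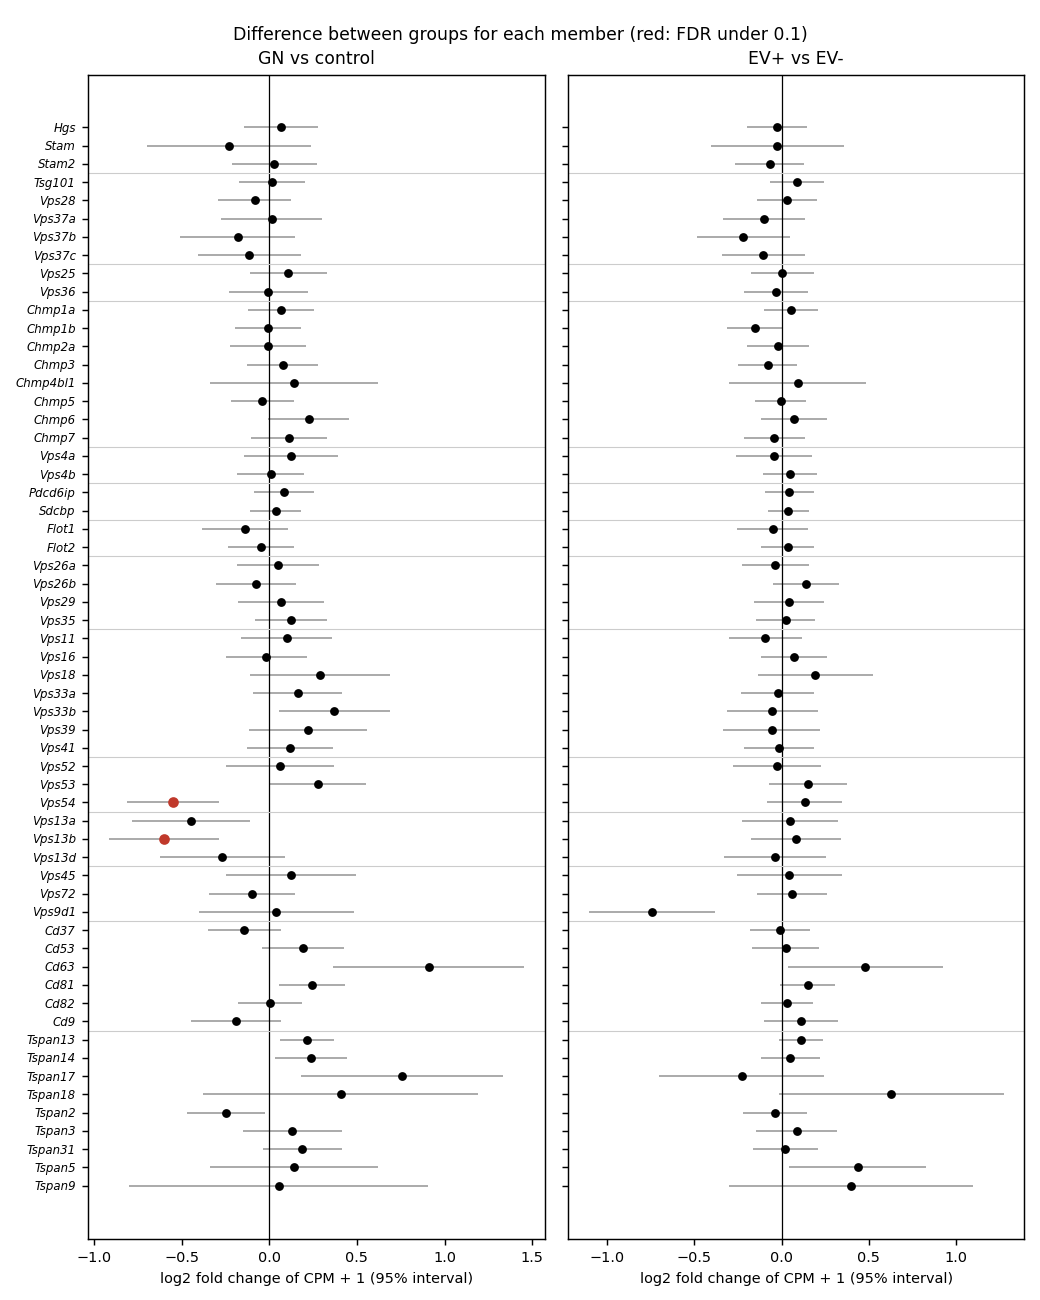
Log2 fold change of CPM + 1 for each of the 59 genes, in GN against control (left) and EV+ against EV- (right). Points are estimates from limma, bars are 95% intervals, and red points passed a false discovery rate under 0.1. Only *Vps54* and *Vps13b* are red, both at the left of 0 in GN against control, and most points of the right panel are close to 0, with *Vps9d1* furthest to the left at -0.74.

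Against GN, the EV+ and EV- groups showed no called gene of the list by limma (0.122% and 0.378% of all genes) or the edgeR quasi-likelihood test (0.1% and 0.4%). In EV+ against GN the likelihood-ratio test and DESeq2 also called 0 (0.478% and 0.539%), and 2 genes, *Chmp1b* and *Vps54*, had an unadjusted p under 0.05 (7.13% of all genes). In EV- against GN the likelihood-ratio test called *Cd63* (1.4%), DESeq2 called 0 (1.26%), and 5 genes, *Cd63*, *Cd81*, *Tspan13*, *Tspan18* and *Vps53*, had an unadjusted p under 0.05 (7.85%). The interval lay within 0.5 on the log2 scale for 50 genes in EV+ against GN and for 49 genes in EV- against GN.

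Against control, limma called 0 genes in EV+, where 3.63% of all genes were called, and 1 gene, *Vps54*, in EV-. The edgeR quasi-likelihood test called 0 (3.34%) and 1 (2.6%), the likelihood-ratio test *Vps18* in EV+ (5.73%) and *Vps13b* and *Vps54* in EV- (4.93%), and DESeq2 *Tspan14* and *Vps18* in EV+ (6%) and *Vps13b* and *Vps54* in EV- (5.27%). At an unadjusted p under 0.05 there were 11 genes in EV+ (15% of all genes) and 7 in EV- (13.1%). In EV+ against control limma called *Tspan14* and *Vps18* without EV+ replicate 1, *Vps18* without EV- replicate 2 and *Cd53* without EV+ replicate 2. In EV- against control it called *Vps13b* in place of *Vps54* without EV- replicate 2, both genes without EV+ replicate 2, and 0 genes without EV- replicate 3, control replicate 1 or control replicate 2.

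Among the 4 groups the F test called 0 of the 59 genes, against 2.57% of all genes, with 10 at an unadjusted p under 0.05 (12%). The edgeR quasi-likelihood test called 0 (2.48%), the likelihood-ratio test *Cd63*, *Vps13b*, *Vps54* and *Vps9d1* (6.84%), and DESeq2 the same 4 genes and *Tspan13* (6.03%). Blocked on the replicate number in all 4 groups, limma called *Vps54* (adjusted p = 0.0703, against 0.102 without it). Single calls also came without EV- replicate 1 (*Vps54*), EV- replicate 2 (*Vps13b*) and EV+ replicate 2 (*Vps9d1*).

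EV+ and EV- libraries of the same replicate number shared the highest or lowest place of their groups for part of the list. Replicate 1 was the lowest in both for 14 genes (23.7%, against 15.4% of all genes) and the highest in both for 8 (13.6%, against 15%). Replicate 2 was the highest of its group in both EV+ and EV- for 12 of the 59 genes (20.3%), among them *Vps18*, *Vps52*, *Vps13a*, *Vps13b*, *Pdcd6ip* and *Flot2*, and over all genes the share was 19%. It was the lowest in both for 9 genes, among them *Cd63*, *Tsg101*, *Flot1* and *Vps36* (15.3%, against 20.1% of all genes). Replicate 3 was the lowest in both for 13 genes, *Vps54*, *Sdcbp* and *Cd9* among them (22%, against 11.8%), and the highest in both for 8 (13.6%, against 11.5%).

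Partners of the listed genes were examined from fixed lists of 73 genes of ESCRT function, endosomal tethering, exosome release and tetraspanin webs, 54 of which were in the table. In GN against control, in both comparisons with GN and in EV+ against EV- limma called 0 of the 54, where 1.75%, 0.122% (EV+), 0.378% (EV-) and 0.0222% of all genes were called. In EV+ against control it called 2 (3.7%, against 3.63% of all genes) and in EV- against control 1 (1.85%, against 2.84%), shares near those of all genes. *Stambpl1*, a deubiquitinase related to the ESCRT-associated enzyme AMSH, fell in EV+ against control (37.1 ± 2.40 against 52.1 ± 4.50 CPM, log2 fold change -0.48, adjusted p = 0.0398) and in EV- against control (38.2 ± 2.13 CPM, -0.44, adjusted p = 0.0718). Its GN libraries were at 46.2 and 41.0 CPM. *Ifitm1*, an interferon-induced membrane protein, rose in EV+ against control (333 ± 19.5 against 261 ± 0.379 CPM, log2 fold change 0.35, adjusted p = 0.0657), and its GN libraries were at 354 and 325 CPM. No other gene of the 54 passed in either comparison with control. The 9 listed genes not described singly, *Chmp2a*, *Chmp3*, *Chmp5*, *Chmp7*, *Tspan3*, *Tspan31*, *Vps29*, *Vps37a* and *Vps39*, had no unadjusted p under 0.05 in any of the 6 comparisons.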

How the data were processed

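RNA of sorted CD11b/c-positive splenic cells was made into SMART-Seq v4 and Nextera XT libraries and sequenced in pairs on a NovaSeq instrument. According to the methods and the submitters' processing notes, the authors aligned reads to rn6 with STAR 2.5.3, counted them on RefSeq genes with HTSeq 0.6.0 in intersection-strict mode, removed genes with a maximum CPM under 1 and applied TMM normalization in edgeR. The deposited table therefore holds a normalized signal, TMM-normalized CPM, per gene and library. It held 9003 genes, each reaching at least 1.01 CPM in some library, and 18 symbols had been turned into dates. All values (100%) were whole multiples of the worth of 1 read within 0.001 reads, and applying TMM to the recovered reads gave the deposited CPM back to within 4e-05.

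The main test was limma 3.58.1 in R 4.3.3 on log2(CPM + 1) with an intensity trend, in 1 fit of the 10 libraries and 4 groups (6 residual degrees of freedom), with Benjamini-Hochberg adjustment over all genes and calls under 0.1. Fold changes are on the log2(CPM + 1) scale, which understates the change of low genes. The recovered reads entered edgeR 4.0.16 and DESeq2 1.42.0 as alternatives. The fit was checked on simulated data. Python 3.11.15 with pandas 2.3.3 and numpy 2.4.6 made the summaries.

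Libraries of a group differed with a chi-square of 13.4 to 45.4 per degree of freedom, and none was thus a duplicate of another. The study calls them biological replicates, and the rats behind them are not given, so that p-values measure the spread between these libraries. Deviations from the group means of EV+ and EV- libraries with the same number correlated at 0.203, 0.295 and 0.122 across genes (other pairs -0.229 to -0.0129), and the numbers were taken to pair them. Control and GN libraries correlated at 0.0878, and their numbers were not taken as pairs. The main fit has no block, and fits blocked on the number are alternatives, of which the one over all libraries also blocks control and GN. Floors in reads cover counting error only.

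The members and all gene lists were chosen with earlier results of these data known. Named were called members, the usual vesicle markers, the 2 largest rises and falls without overlap in each comparison among members with a mean of at least 1 CPM, and the highest and lowest member of each role by mean CPM. Others named in the text were chosen after their values were seen. Sequences are from RefSeq, build GRCr8.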

Additional observations from a re-analysis of the deposited data

How the results depend on the processing

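Of 484 values of named genes under the alternatives, 451 kept their direction and side of the threshold, 16 passed it in addition and 17 no longer passed. None reversed, but the 24 gene comparisons behind them had been picked as calls or as the largest differences without overlap. A kept direction was therefore nearly fixed in advance. All 17 lost calls belong to *Vps54* and *Vps13b* in GN against control and *Vps54* in EV- against control. The other comparisons had no call to lose. In GN against control, 2 members were called, and the count was 4 by DESeq2, 1 at a false discovery rate under 0.05, 1 without the intensity trend and 0 to 2 with single libraries left out. In EV- against control 1 was called, and the count was 2 by DESeq2 and 2 by the likelihood-ratio test, 0 at a false discovery rate under 0.05, 0 without the trend, 0 with only the groups compared and 0 to 2 with single libraries left out. In EV+ against control 0 were called, and the count was 2 by DESeq2, 1 by the likelihood-ratio test and 0 to 2 with single libraries left out. In EV+ against EV- 0 were called, and the count was 1 by DESeq2, 1 by the likelihood-ratio test, 1 in the fit of those 6 libraries only, with the replicate block (an alternative chosen after seeing the data) and 0 to 1 with single libraries left out. In EV- against GN 0 were called, and the likelihood-ratio test gave 1. In EV+ against GN every alternative gave 0. In the F test 0 were called, and the count was 5 by DESeq2, 4 by the likelihood-ratio test, 1 with the replicate block and 0 to 1 with single libraries left out. The replicate block changed no other count. RLE scaling, pseudocounts of 0.1 and 0.5, and a filter of at least 1 CPM in 2 libraries changed no count. Why the counts differ between tools was not tested. Low counts limit *Cd63*, *Tspan9*, *Tspan17* and *Tspan18*, which were measured at a few CPM or less. For *Cd63*, whether the overlap with *Rdh5* lowered the count was not tested. With 2 or 3 libraries a group, half-widths of the 95% interval had a median of 0.19 to 0.233 on the log2 scale. These medians cover the 54 members with a mean of at least 10 CPM and leave out the low genes.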
